A study of Mus musculus with 36 samples.

Results

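The 9 genes Cd79a, Cd79b, Blk, Btk, Blnk, Bank1, Cd22, Cd72 and Fcrl1, which act at or just below the B cell receptor, were followed in RNA from mouse spleen. They were read from every probe set that names only 1 of them, which gave 11 probe sets of the 45101 on the array, 2 each for Cd22 and Fcrl1 and 1 for each of the other genes. The brightest probe set by mean log2 signal stood for its gene. All 11 probe sets passed the filter on low signal, so that the 9 genes stand among 12427 genes tested. The spleens came from 36 F2 mice 4 months old, 18 labelled arthritic and 18 labelled non-arthritic, with 1 Affymetrix array per labelled mouse. The design text also speaks of 13 F2 mice beside these group sizes, so that 36 separate animals rest on the sample labels alone, and n counts labelled samples throughout. The series title describes the arthritic animals as lacking the interleukin 1 receptor antagonist, a secreted protein that blocks the interleukin 1 receptor. No genotype, sex, arthritis score or treatment is given for any single mouse, so the only contrast the labels give is arthritis against none, and what the non-arthritic F2 mice carry is not stated. The labels do not say whether any of the mice share a litter or a cage.

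The B cell receptor is a membrane immunoglobulin that binds antigen and signals through a pair of chains, CD79A and CD79B, whose cytoplasmic tails are phosphorylated by Src-family kinases such as BLK. Syk then binds the tails, the adaptor BLNK assembles a complex in which the Tec-family kinase BTK and phospholipase C gamma 2 are activated, and calcium release and NF-kappaB activation follow. The scaffold BANK1 joins kinases of the pathway to calcium channels, while the receptors CD22 and CD72 recruit phosphatases that restrain it. The spleen is a major site of mature B cells, and in the mouse its red pulp also makes red blood cells. Slc4a1, which encodes the anion exchanger of the red cell membrane, was therefore used as the marker of erythroid RNA.

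RefSeq promoter windows on GRCm38.p6 were matched by symbol for 7 of the 9 genes, all but Cd79b and Blk. The 4 shown are those of Cd79a and Bank1, which among the genes with a window had the highest median correlation with the other members, of Fcrl1, which had the lowest slope on Slc4a1 among the 9 genes, and of Btk, which followed the others least. Each window holds the 250 bases before the annotated gene start, 5′ to 3′ on the gene's strand. The Cd79a window lies at chr7:24897247-24897496 on the plus strand, that of Bank1 at chr3:136326067-136326316 on the minus strand, that of Fcrl1 at chr3:87376137-87376386 on the plus strand and that of Btk at chrX:134583141-134583390 on the minus strand. Capitals mark matches to 1 of 5 short motifs on either strand.
Cd79a: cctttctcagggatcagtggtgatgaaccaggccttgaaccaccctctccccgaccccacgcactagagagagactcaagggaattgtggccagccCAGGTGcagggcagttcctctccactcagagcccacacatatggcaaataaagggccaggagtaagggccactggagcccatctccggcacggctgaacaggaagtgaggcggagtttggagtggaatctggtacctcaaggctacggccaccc
Bank1: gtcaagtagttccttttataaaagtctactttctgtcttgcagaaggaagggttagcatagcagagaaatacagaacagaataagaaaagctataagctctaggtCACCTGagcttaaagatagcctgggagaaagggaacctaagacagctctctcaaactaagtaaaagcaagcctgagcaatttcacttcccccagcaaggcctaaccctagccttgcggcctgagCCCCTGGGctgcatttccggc
Fcrl1: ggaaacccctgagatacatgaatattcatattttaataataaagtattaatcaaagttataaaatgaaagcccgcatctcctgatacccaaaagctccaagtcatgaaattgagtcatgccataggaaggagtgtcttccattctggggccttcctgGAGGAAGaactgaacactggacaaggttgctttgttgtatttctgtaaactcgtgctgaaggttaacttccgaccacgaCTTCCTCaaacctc
Btk: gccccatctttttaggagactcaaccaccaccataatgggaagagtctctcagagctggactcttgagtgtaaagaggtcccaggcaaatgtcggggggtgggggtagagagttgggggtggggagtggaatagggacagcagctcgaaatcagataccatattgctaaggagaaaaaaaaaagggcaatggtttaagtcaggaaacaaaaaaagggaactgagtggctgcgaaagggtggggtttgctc
The motifs were ATGCAAAT (the octamer bound by Oct factors), CCCNNGGG (half-sites of EBF), GAGGAAG (PU.1), CAGGTG (the E-box bound by E2A) and AGATAAG (a site of the erythroid factor family named for it). Cd79a held CAGGTG at 154 to 149 bases before the start. Bank1 held the reverse complement of CAGGTG at 145 to 140 bases and CCCNNGGG at 21 to 14 bases before the start, where its capitals stand. Fcrl1 held GAGGAAG at 93 to 87 bases and its reverse complement at 14 to 8 bases, while Btk held none of the 5 strings in these 250 bases. Of the windows not shown, Blnk held the reverse complement of the octamer at 130 to 123 bases and of CAGGTG at 160 to 155 bases, Cd22 held CCCNNGGG at 48 to 41 bases and the reverse complement of CAGGTG at 245 to 240 bases, and Cd72 held the reverse complement of GAGGAAG at 48 to 42 bases. Over all 32851 windows of the table, 1.60% held ATGCAAAT, 11.8% CCCNNGGG, 10.6% GAGGAAG, 17.2% CAGGTG and 2.74% AGATAAG. These are matches of letters only, with no overlap between the matches of different motifs marked in the windows shown.

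Signal was given as log2(intensity + 16). The median intensity of an array ran from 110.6 to 183.2 over the 36 arrays, and precision is limited by how many arrays there are. The 18 hybridisation control probe sets, which read bacterial and phage RNAs added for hybridisation, split the arrays into 3 clusters, called A, B and C here. There were 9 arthritic and 4 non-arthritic arrays in A, 6 arthritic and 10 non-arthritic in B, and 3 arthritic and 4 non-arthritic in C. What the clusters stand for in the handling of the arrays is not given in the labels. The ratio of 3′ to 5′ signal of Gapdh, a measure of how complete the labelled RNA was, averaged 0.751 ± 0.059 (SD, n = 13) in cluster A, 1.00 ± 0.091 (n = 16) in cluster B, and 0.911 ± 0.061 (n = 7) in cluster C. Of all 27022 probe sets tested, 48.1% differed between the clusters (limma F test, Benjamini-Hochberg adjusted). Results are therefore given with the cluster as a block and within each cluster wherever these values bear on them. In 3 arrays, arthritic replicate 8 and non-arthritic replicates 5 and 6, genes of the exocrine pancreas were high, and all 3 belong to cluster A. Of 18 listed B cell markers other than the members, 16 had a tested probe set, Ms4a1 and Pax5 among them.

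The first comparison asked whether any of the 9 genes differed between arthritic and non-arthritic spleens. None of them passed the test: 0 of 9 genes and 0 of 11 probe sets were past an adjusted p of 0.05 (limma, adjusted over all 27022 probe sets), against 0.0481% of all probe sets, which is 13, with 4250 past an unadjusted p of 0.05. A Wilcoxon rank-sum test called 0 of the 11 probe sets and 14 of all. In 7 of the 9 genes the arthritic mean was the higher one, and the median difference was 0.05 on the log2 scale, beside -0.0023 over all 12427 genes. In the same fit all 23 tested erythroid markers were lower in the arthritic mice, with a median of -0.20, and all 5 stroma markers, with a median of -0.42, none of them called. With Slc4a1 as a covariate, 4 of the 9 genes were higher and 5 lower, with a median of -0.0072. In RNA from a whole spleen, fewer B cells and less RNA per B cell cannot be told apart.

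The signal chains showed broad overlap of the groups. Cd79a ran from 12.50 in arthritic replicate 4 through a median of 13.13 to 13.56 in arthritic replicate 14, and in the non-arthritic mice from 12.56 in replicate 12 through 13.10 to 13.39 in replicate 2. The highest and the lowest spleen were both arthritic, and 14 of 18 arthritic values lay inside the non-arthritic range. The difference was 0.07 with a standard error of 0.09 (limma adjusted p = 0.74). Cd79b ran from 12.66 to 13.69 with a median of 13.15 in arthritic mice, where replicates 4 and 18 were the extremes, and from 12.49 to 13.60 with a median of 13.08 in non-arthritic mice. Here 17 of 18 arthritic spleens lay within the non-arthritic range, and the difference was 0.13 with a standard error of 0.09 (adjusted p = 0.51).

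**Figure D1:**
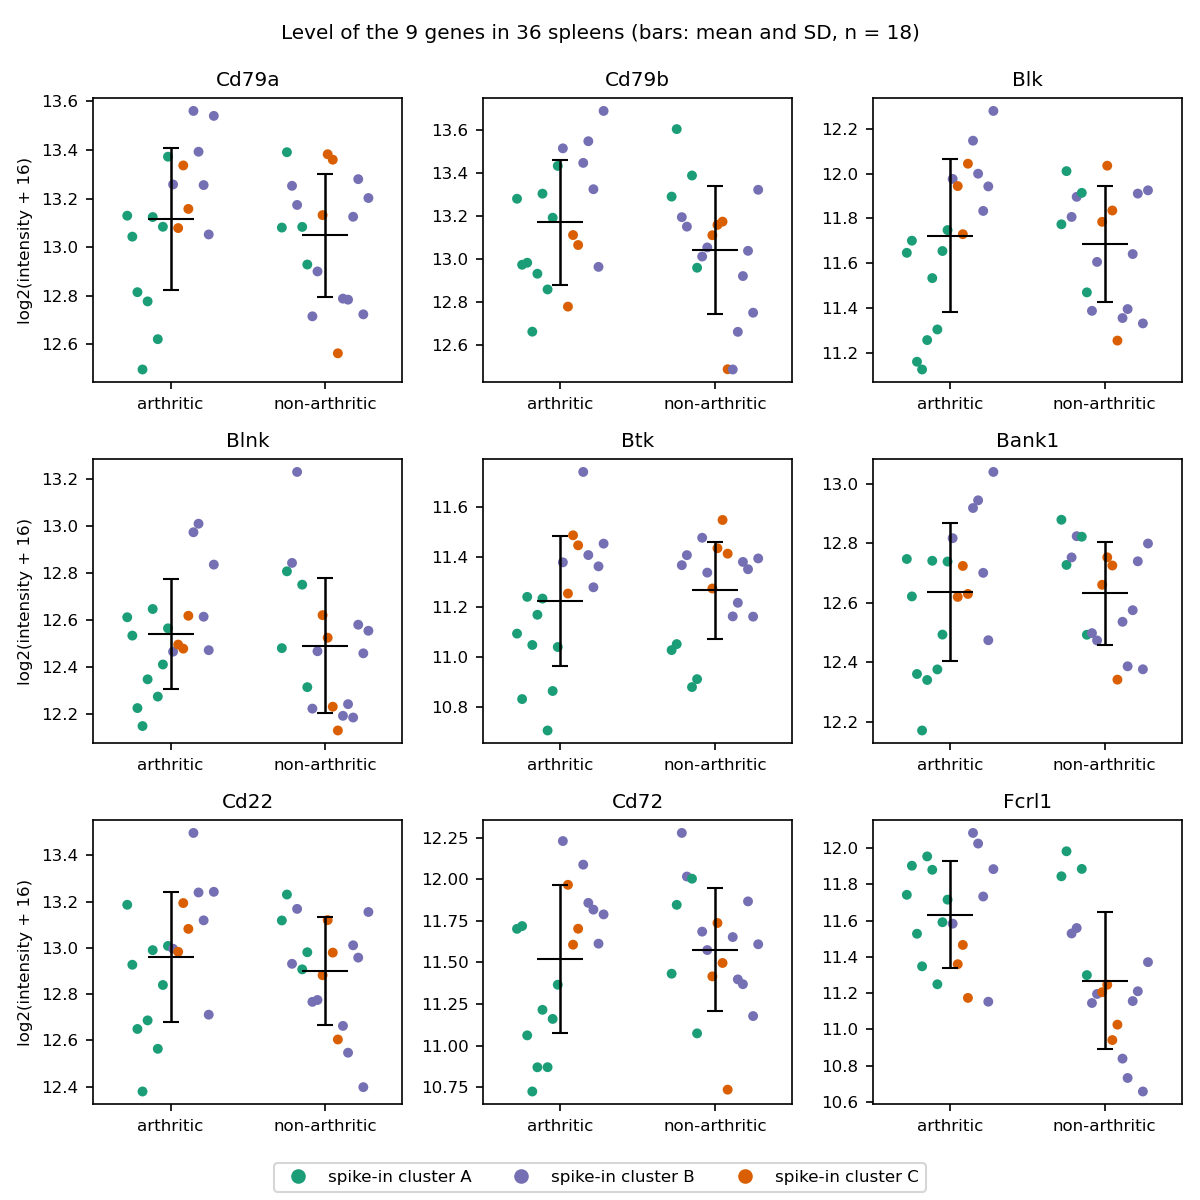
Level of each of the 9 genes as log2(intensity + 16) on the y axis, with 1 point per spleen, arthritic on the left and non-arthritic on the right, coloured by cluster of hybridisation controls, and bars for the mean and SD of 18 mice. The groups overlap in every panel; for Fcrl1 the arthritic mean is 11.63 and the non-arthritic mean 11.27, and Btk is lowest in the green arrays of cluster A.

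The kinases differed little between the groups, while Btk but not Blk passed the test between the clusters of arrays. Blk, the Src-family kinase found mainly in B cells, ran from 11.13 in replicate 4 through 11.74 to 12.28 in replicate 18 of the arthritic mice and from 11.26 through 11.78 to 12.04 in the non-arthritic mice. The same arthritic replicates, 4 and 18, thus marked the extremes of Blk and of Cd79b, and the difference was 0.04 with a standard error of 0.10 (limma adjusted p = 0.88). Btk, the kinase whose loss impairs B cell maturation, ran from 10.71 in replicate 7 through 11.25 to 11.74 in replicate 14 of the arthritic mice and from 10.88 in replicate 5 through 11.34 to 11.55 in replicate 11 of the others. Its difference was -0.04 with a standard error of 0.08 (adjusted p = 0.82). Btk differed by cluster of hybridisation controls: its level was 11.01 ± 0.16 (SD, n = 13) in cluster A, 11.37 ± 0.14 (n = 16) in cluster B, and 11.41 ± 0.11 (n = 7) in cluster C. This difference between clusters passed the limma F test across all probe sets (adjusted p = 1.27e-06). No array of cluster A, whose highest value was 11.24, reached the lowest value of cluster C, 11.25, but cluster B began at 11.16. Blk was also lowest in cluster A, at 11.56 ± 0.28, against 11.78 ± 0.29 in B and 11.80 ± 0.27 in C, and did not pass (limma F test, adjusted p = 0.081). Whether the handling of the arrays set this level of Btk was not tested.

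The adaptors were close to level between the groups. Blnk, which links the receptor's kinases to phospholipase C, ran from 12.15 through 12.51 to 13.01 in arthritic mice and from 12.13 through 12.47 to 13.23 in non-arthritic mice. Non-arthritic replicate 4 held the highest value, all 18 arthritic spleens lay within the non-arthritic range, and the difference was 0.05 with a standard error of 0.09 (limma adjusted p = 0.81). Bank1 ran from 12.17 through 12.66 to 13.04 in arthritic mice and from 12.34 through 12.69 to 12.88 in non-arthritic mice. The arthritic extremes were again replicates 4 and 18, and the difference was 0.01 with a standard error of 0.07 (adjusted p = 0.98). The sign of the Bank1 difference turned with the setting, as it was -0.06 with Slc4a1 as a covariate.

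Among the surface coreceptors, Cd22 and Fcrl1 had the larger differences, and only on some of their probe sets. The brighter Cd22 probe set ran from 12.38 through 12.99 to 13.50 in arthritic mice and from 12.40 through 12.94 to 13.23 in non-arthritic mice, a difference of 0.06 with a standard error of 0.08 (limma adjusted p = 0.75). The second Cd22 probe set ran from 10.98 through 11.51 to 11.93 in arthritic mice and from 10.39 through 10.99 to 11.96 in non-arthritic mice, and 17 of 18 arthritic spleens lay above the non-arthritic median. Its difference of 0.42 with a standard error of 0.12 did not pass the test (adjusted p = 0.10). Cd72, a C-type lectin that inhibits the receptor, ran from 10.72 through 11.66 to 12.23 in arthritic mice and from 10.73 through 11.59 to 12.28 in non-arthritic mice. Its ranges nearly coincided, with a difference of -0.06 and a standard error of 0.13 (adjusted p = 0.86).

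Fcrl1, a coreceptor of the Fc receptor-like family that carries activating motifs, had the largest difference of the 9 representative probe sets. It ran from 11.15 in replicate 17 through 11.65 to 12.08 in replicate 14 of the arthritic mice and from 10.66 in replicate 17 through 11.21 to 11.98 in replicate 2 of the non-arthritic mice. The groups overlapped, with 16 of 18 arthritic spleens above the non-arthritic median, and the difference of 0.36 with a standard error of 0.11 did not pass (limma adjusted p = 0.11). The second Fcrl1 probe set was dimmer and spread more widely, from 8.11 through 8.83 to 10.69 in arthritic mice and from 7.90 through 8.91 to 9.82 in non-arthritic mice, with a difference of 0.29 and a standard error of 0.21 (adjusted p = 0.49). In that probe set 8 of 18 arthritic spleens lay above the non-arthritic median, against 16 in the brighter one.

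**Figure D2:**
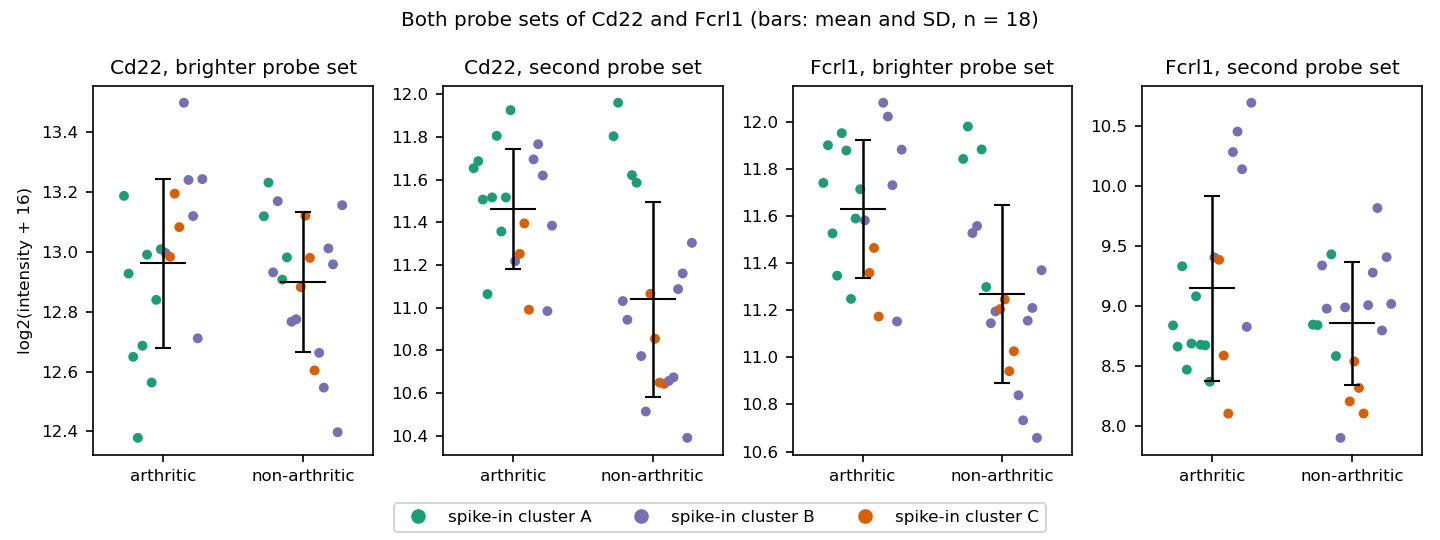
Both probe sets of Cd22 and of Fcrl1 as log2(intensity + 16) on the y axis, with 1 point per spleen, arthritic on the left and non-arthritic on the right, coloured by cluster of hybridisation controls, and bars for the mean and SD of 18 mice. The arthritic and non-arthritic means are 12.96 and 12.90 for the brighter and 11.46 and 11.04 for the second Cd22 probe set, and cluster A is high in the second Cd22 and the brighter Fcrl1 probe set.

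The 2 probe sets of Cd22 disagreed between arrays. Over 36 spleens their Pearson r was 0.53, but within clusters A, B and C it was 0.89, 0.88 and 0.57. The second Cd22 probe set averaged 11.62 ± 0.24 (SD, n = 13) in cluster A, 11.08 ± 0.41 (n = 16) in cluster B, and 10.98 ± 0.29 (n = 7) in cluster C, a difference that passed the limma F test (adjusted p = 0.00109). The brighter Cd22 probe set, at 12.88, 12.95 and 12.98 in the same clusters, did not (adjusted p = 0.60). Across genes, the second Cd22 probe set followed Fcrl1 with r = 0.87 over 36 spleens, and Fcrl1 also differed between clusters, at 11.69 ± 0.26, 11.37 ± 0.43 and 11.20 ± 0.18 (adjusted p = 0.0435). The second Fcrl1 probe set differed in another order, at 8.81, 9.40 and 8.46 (adjusted p = 0.000474). Cd72 differed too, at 11.31, 11.75 and 11.52 (adjusted p = 0.0163). Cluster A holds 9 arthritic and 4 non-arthritic arrays, so group and cluster are not balanced against each other. Whether the clusters account for the differences between the groups was not tested.

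With the cluster as a block, the difference was 0.29 with a standard error of 0.10 for both Fcrl1 (limma adjusted p = 0.27) and the second Cd22 probe set (adjusted p = 0.26). In that fit 0 of 27022 probe sets were called, with 3221 past an unadjusted p of 0.05, and the arthritic mean was the higher one in 9 of 9 genes, with a median of 0.09 beside -0.0026 over all genes. The clusters did not point the same way. Within cluster A, 8 of the 9 genes were lower in the arthritic mice, with a median of -0.22 and Cd72 lowest at -0.40, and none was called, beside 0 of all 27022 probe sets. Within cluster B, all 9 were higher, with a median of 0.30, and Fcrl1 was called at 0.60 (adjusted p = 0.0425), as was the second Cd22 probe set at 0.59 (adjusted p = 0.0373), where 2.73% of all probe sets were called. Within cluster C, 8 of 9 were higher with a median of 0.15 and none was called, again beside 0 of 27022. The difference between the clusters in this contrast was not tested.

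Single arrays decided these calls too. Without non-arthritic replicate 2, which had the highest Fcrl1 of its group, Fcrl1 was called at 0.41 (limma adjusted p = 0.0404) and the second Cd22 probe set at 0.48 (adjusted p = 0.0329). Each was called in 1 of the 36 fits that left out 1 array. Those fits called from 0 to 389 of all 27022 probe sets. Without the 3 arrays with pancreas transcripts, 0.873% of all probe sets were called and the second Cd22 probe set was among them, at 0.49 (adjusted p = 0.0458).

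The second comparison asked how the 9 genes varied with erythroid RNA. Slc4a1 ran from 13.09 in replicate 18 through 13.97 to 14.46 in the arthritic mice and from 13.36 in replicate 2 through 14.25 to 14.60 in replicate 12 of the non-arthritic mice. It also differed between the clusters of arrays, at 13.89 ± 0.33 (SD, n = 13) in cluster A, 14.06 ± 0.37 (n = 16) in cluster B, and 14.37 ± 0.18 (n = 7) in cluster C (limma F test, adjusted p = 0.0385). The spleens with the lowest Slc4a1, arthritic replicate 18 and non-arthritic replicate 2, were among the highest for several members: replicate 18 had the highest arthritic Cd79b, Blk and Bank1, and replicate 2 the highest non-arthritic Cd79a, Cd79b, Cd22 and Fcrl1. Non-arthritic replicate 12, with the highest Slc4a1, had the lowest non-arthritic Cd79a, Blk, Blnk, Bank1 and Cd72.

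In a fit of each probe set on Slc4a1 with the group as a term, 8 of 9 genes had a negative slope and 4 of 9 were called lower with more Slc4a1, namely Fcrl1, Cd79b, Bank1 and Cd72. Of all 27019 other probe sets, 8.03% were called lower and 8.17% higher (limma adjusted p under 0.05). The slope, in log2 units of the gene per log2 unit of Slc4a1, was -0.63 with a standard error of 0.12 for Fcrl1 (adjusted p = 0.000337), -0.48 with 0.11 for Cd79b (adjusted p = 0.00307), -0.30 with 0.09 for Bank1 (adjusted p = 0.0132) and -0.52 with 0.17 for Cd72 (adjusted p = 0.0336). Both second probe sets were called as well, that of Cd22 at -0.59 (adjusted p = 0.00555) and that of Fcrl1 at -0.83 (adjusted p = 0.0298). The slopes of Cd79a at -0.28, Blk at -0.31, Blnk at -0.28 and Cd22 at -0.26 were negative and did not pass, with adjusted p between 0.092 and 0.11. Btk alone had a positive slope, 0.17 with a standard error of 0.11 (adjusted p = 0.28). The median over the 9 genes was -0.30, beside -0.06 over all other genes.

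**Figure D3:**
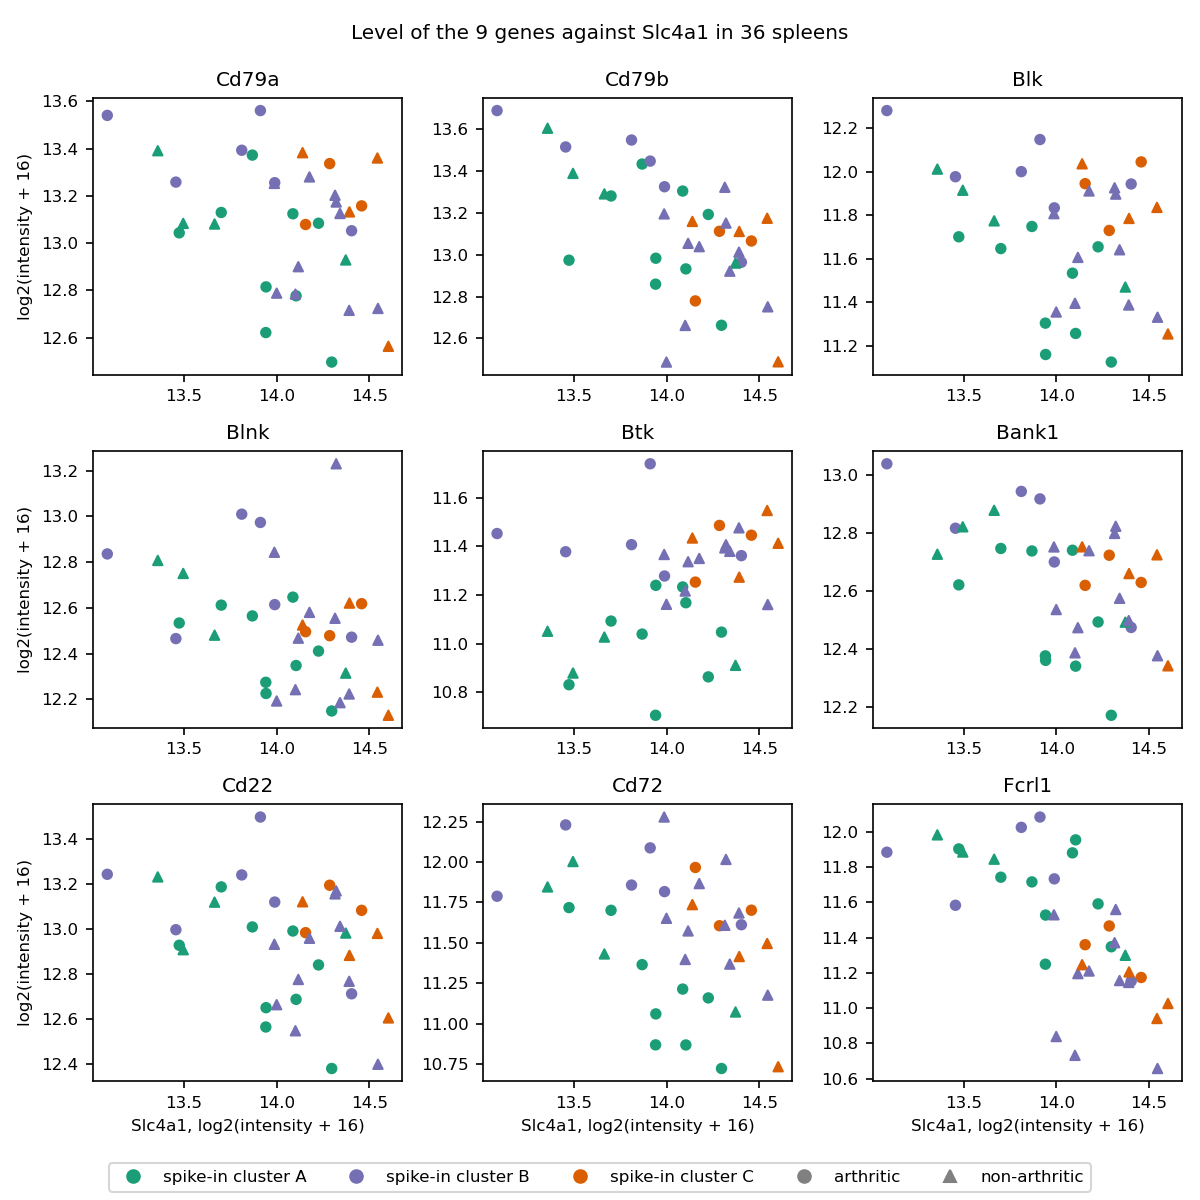
Level of each of the 9 genes on the y axis against Slc4a1 on the x axis, both as log2(intensity + 16), with 1 point per spleen, circles for arthritic and triangles for non-arthritic mice, coloured by cluster of hybridisation controls. Points fall from left to right most clearly for Fcrl1 (r = -0.69) and Cd79b (r = -0.60), and not for Btk (r = 0.28).

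Some of these calls rested on single arrays. Bank1 missed the threshold without arthritic replicate 18 (limma adjusted p = 0.0521), and Cd72 missed it without arthritic replicate 4, arthritic replicate 10, non-arthritic replicate 5 or non-arthritic replicate 12, with the highest adjusted p of 0.0753. The second Fcrl1 probe set missed it without arthritic replicate 13 or 18 or non-arthritic replicate 5 or 12, with a slope of -0.61 and an adjusted p of 0.144 at most. Without the 3 arrays with pancreas transcripts 3 of 9 genes were called, each of them lower, beside 1603 of 27019 probe sets called lower. In that fit Cd72 (-0.46, adjusted p = 0.0957) and the second Fcrl1 probe set (-0.80, adjusted p = 0.072) were not called. Blnk was called without non-arthritic replicate 4, the spleen with the highest Blnk (-0.31, adjusted p = 0.0268). Fcrl1 and Cd79b were called in all 36 fits that left out 1 array.

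The choice of erythroid measure and the cluster of arrays moved the count. With the cluster as a block, 7 of 9 genes were called, each of them lower. Of all 27019 probe sets, 2707 were called lower and 19.2% in either direction. The exceptions were Blnk at -0.33 (limma adjusted p = 0.055) and Btk at 0.0037 (adjusted p = 0.98). With the mean of 22 other erythroid genes in place of Slc4a1, 8 of 9 were called lower beside 12.1% of all probe sets, from -0.35 for Blnk to -0.62 for Cd72, and Btk stood at -0.08 (adjusted p = 0.61). Slc4a1 and that mean followed each other with r = 0.87 over 36 spleens. Adding the cluster to that fit gave the same count, 8 of 9, beside 14.4%. Quantile normalization between the arrays, under which the median slope of all probe sets moved from -0.10 to -0.02, gave 8 of 9 beside 4.97%, with the Btk slope at -0.0034. The direction of Btk thus turned with the scaling and with the erythroid measure.

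The other bright probe set of Slc4a1, which followed the first with r = 0.76, gave a different count. On it, Fcrl1 was called lower (-0.61, limma adjusted p = 0.0256) and Btk higher (0.46, adjusted p = 0.0153), beside 12.3% of all probe sets lower and 7.33% higher. The median of the 9 genes was -0.11. That probe set averaged 13.64 ± 0.20 (SD, n = 13) in cluster A, 13.97 ± 0.26 (n = 16) in cluster B, and 13.95 ± 0.18 (n = 7) in cluster C, the same order of A against the rest as Btk.

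**Figure D4:**
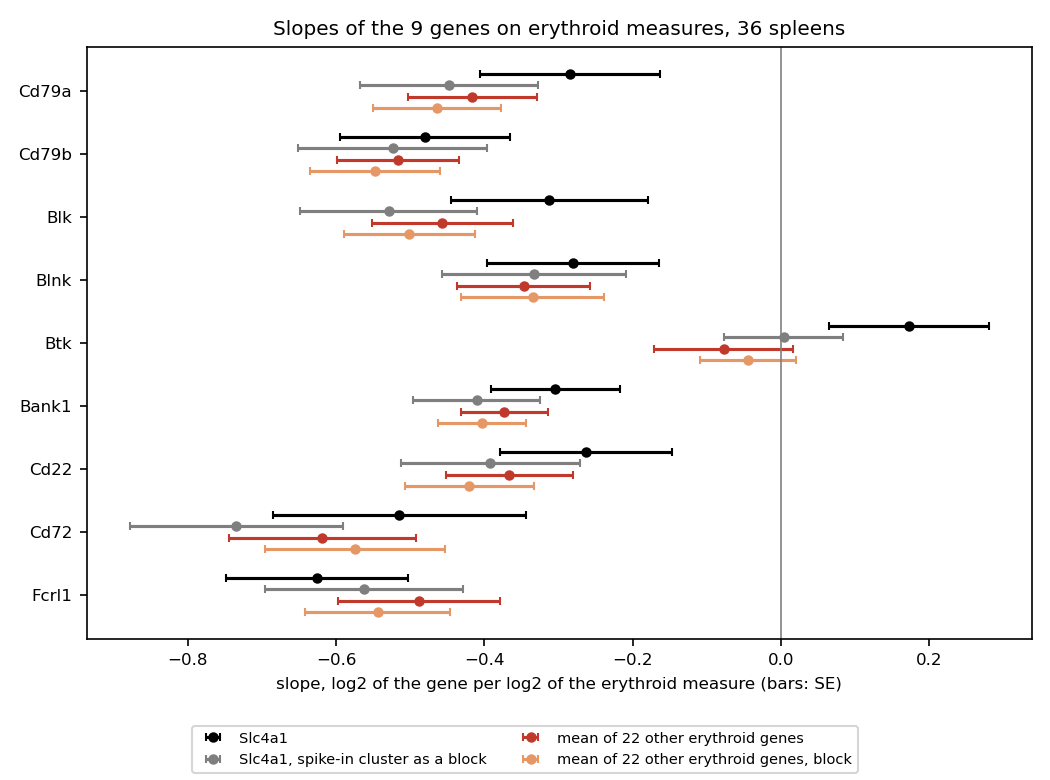
Slope of each of the 9 genes (y axis) in log2 units of the gene per log2 unit of the erythroid measure (x axis), with bars for the standard error, in 4 fits over 36 spleens that include the group. For Slc4a1 the slopes run from -0.63 for Fcrl1 to 0.17 for Btk, and in the fits with the cluster of arrays or with the mean of 22 erythroid genes Btk stays nearest to 0.

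Within the clusters of arrays the negative direction was kept for most genes, with few calls. On Slc4a1, 8, 9 and 8 of 9 slopes were negative in clusters A, B and C, with medians of -0.42, -0.26 and -0.53, and only Cd72 in cluster A was called (-0.98, limma adjusted p = 0.00694), beside 1.15% of all probe sets called lower. On the mean of 22 erythroid genes, 9 of 9 were negative in each cluster, and 6 of 9 were called in cluster A beside 4.09% of all probe sets called lower. None was called in cluster B or C, where 0.315% and 0 of all probe sets were called lower. On Slc4a1 the shares called lower there were 0.0629% and 0. In either direction, cluster B had 681 of 27019 probe sets called on the erythroid mean and 277 on Slc4a1, and cluster C had 0 on each. Within the arthritic mice 8 of 9 slopes on Slc4a1 were negative with a median of -0.32. None was called, beside 0.366% of all probe sets called lower and 854 of 27019 called in either direction. Within the non-arthritic mice 8 of 9 were negative with a median of -0.32. Fcrl1 was called (-0.79), beside 7.50% of all probe sets called lower.

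A test of the difference between the slopes of arthritic and non-arthritic mice called 0 of 27019 probe sets (limma; 2751 at an unadjusted p under 0.05). For the 9 genes the differences ran from -0.33 for Btk to 0.32 for Fcrl1, with standard errors of 0.21 and 0.24.

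As correlations over the 36 spleens, Slc4a1 stood at r = -0.69 with Fcrl1 (Spearman rho -0.74), each with a permutation p of 1e-05, the smallest the permutations can give, and an adjusted p of 0.000375 for r over all 111798 relations of the 9 genes with tested genes. It stood at -0.60 with Cd79b (permutation p = 9e-05, adjusted p = 0.00157), with rho -0.56 (permutation p = 0.00055), and at -0.51 with Bank1 (permutation p = 0.00134, adjusted p = 0.0107), with rho -0.47 (permutation p = 0.00399). Within clusters A, B and C, r was -0.65, -0.60 and -0.78 for Fcrl1, -0.60, -0.65 and -0.28 for Cd79b, and -0.66, -0.68 and -0.55 for Bank1. For the other 6 genes the adjusted p was above 0.05, with r between -0.41 for Cd72 and 0.28 for Btk. Without arthritic replicate 18 and non-arthritic replicate 2, the spleens farthest from the median of Slc4a1, r was -0.66 for Fcrl1, -0.48 for Cd79b and -0.42 for Bank1. All 22 other erythroid genes had a negative r with each of the 8 members other than Btk, and 13 of 22 had one with Btk. The lowest r of Cd79a, Cd79b, Cd22, Blnk and Bank1 were all with Add2, which encodes a subunit of the red cell membrane skeleton, at -0.67, -0.77, -0.65, -0.62 and -0.77.

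The third comparison asked how closely the 9 genes followed each other. Of the 36 pairs, 35 had a positive r, with a median of 0.69, and 26 were called, all positive (permutation adjusted p under 0.05, adjusted over all 111798 relations), beside 22.5% of all relations of the 9 genes with tested genes. With all other genes tested, the median r of a member lay between -0.00012 for Btk and 0.08 for Cd22. The 4 highest pairs joined Cd79a to Blk (r = 0.89, rho 0.82), Cd22 (0.89, rho 0.86) and Bank1 (0.88, rho 0.81), and Cd22 to Bank1 (0.88). Each r had a permutation p of 1e-05, the smallest possible here, and an adjusted p of 0.000375. Without the 2 spleens farthest from the median of Cd79a, arthritic replicate 4 and non-arthritic replicate 12, these r of Cd79a were 0.87, 0.86 and 0.85.

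Both chains of the receptor's signal pair followed each other with r = 0.81, and within clusters A, B and C with 0.93, 0.85 and 0.94. The inhibitory receptors Cd22 and Cd72 followed each other with r = 0.64, and stood at 0.89 and 0.69 with Cd79a. These values hold for the brighter Cd22 probe set: with the mean of both, Cd22 stood at 0.67 with Cd79a and at 0.34 with Cd72, the latter not called (permutation adjusted p = 0.134). Blnk, whose median r with the other members was 0.69, stood at 0.75 with Bank1 and 0.71 with Blk.

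**Figure D5:**
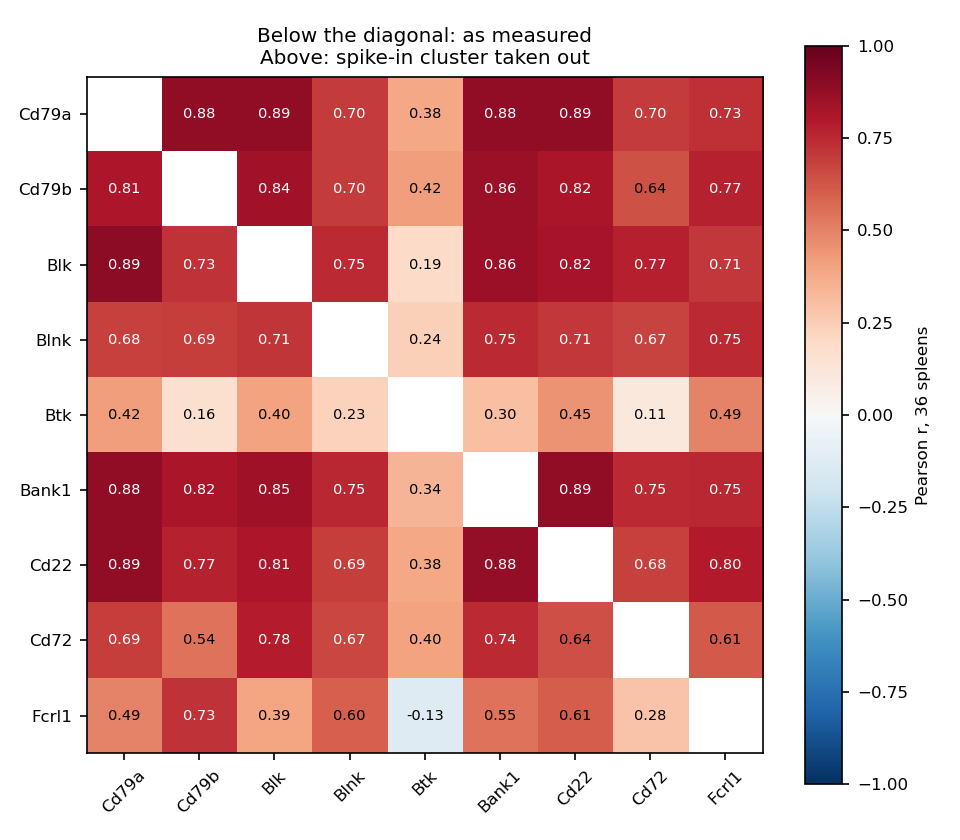
Pearson r over 36 spleens for each pair of the 9 genes on both axes, on a colour scale from -1 to 1, as measured below the diagonal and with the cluster of arrays taken out above it. Pairs of Cd79a, Cd79b, Blk, Bank1 and Cd22 lie between 0.73 and 0.89 below the diagonal. The pairs of Btk below the diagonal, in its row and its column, lie between -0.13 and 0.42.

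Btk followed the others least. Its median r with the other members was 0.36, against 0.52 to 0.78 for the other genes, and none of its 8 pairs was called, the highest being 0.42 with Cd79a (permutation adjusted p = 0.0503) and the lowest -0.13 with Fcrl1 (adjusted p = 0.63). The pair with Cd79a lay at the threshold. It was called with a pseudocount of 1 (permutation adjusted p = 0.0497) and with the mean of all probe sets of a gene (adjusted p = 0.0491). After quantile normalization it was not called (0.28, adjusted p = 0.24). Among the arthritic mice the r of Btk with the other members ran from 0.19 to 0.64, and among the non-arthritic mice from -0.40 to 0.12. That difference was not tested. Within cluster B its r ran from 0.50 to 0.78, whereas in cluster A it ran from -0.23 to 0.36 and in the 7 arrays of cluster C from -0.42 to 0.34. With the level of the cluster taken out, Btk and Fcrl1 stood at 0.49 (permutation adjusted p = 0.0155), where the pair was negative as measured. Btk was then also called with Cd22 (0.45, permutation adjusted p = 0.0293) and Cd79b (0.42, adjusted p = 0.0447), beside 13.9% of all relations called positive. It was not called with Cd79a, Bank1, Blnk, Blk or Cd72, with r between 0.11 and 0.38. With Slc4a1 and the group taken out, Btk was called with 6 of the 8 others, with r between 0.43 and 0.60. It was not called with Blnk (0.38) or Fcrl1 (0.11). In that setting 19.0% of all 111798 relations were called.

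Over the 36 spleens as measured, Fcrl1 was the other gene with loose pairs. It was not called with Cd72 (r = 0.28, permutation adjusted p = 0.23) or Blk (0.39, adjusted p = 0.073), and its highest r was 0.73 with Cd79b. With the cluster taken out, it was called with Cd72 (0.61, permutation adjusted p = 0.00135) and with Blk (0.71, adjusted p = 0.000422). With Slc4a1 and the group taken out, it was called with neither (0.10 and 0.24). Within clusters A, B and C, Fcrl1 stood at 0.66, 0.71 and 0.57 with Cd72 and at 0.62, 0.85 and 0.32 with Blk. Within cluster B it followed Cd22 at 0.93 and Cd79b at 0.91, and within cluster A the same pairs stood at 0.59 and 0.65. Over all pairs, taking out the cluster gave 31 of 36 called, all 36 positive and a median r of 0.74. Of all 111798 relations, 23.9% were called in either direction in that setting and 13.9% were called positive. Taking out Slc4a1 and the group gave 29 of 36 pairs called with a median of 0.62, beside 19.0% of all relations. The median r of the 36 pairs was 0.72 in the arthritic mice, 0.65 in the non-arthritic mice and 0.78, 0.74 and 0.61 in clusters A, B and C.

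The other genes of the pathway were read from a list of 40, of which 33 had a tested probe set and the rest were not analysed here. Their slopes on Slc4a1 were negative in 29 of 33, with a median of -0.15 beside -0.06 over all genes, and 11 of 33 were called lower and 0 higher (limma), beside 985 of 12426 genes called lower. The lowest adjusted p belonged to Ptpn6, the phosphatase SHP-1 that CD22 and CD72 recruit, with a slope of -0.51 and a standard error of 0.10 (adjusted p = 0.000199). Fyn, a Src-family kinase shared with T cells, stood at -0.43 and Fcgr2b, the inhibitory Fc receptor of B cells, at -0.36. The adaptors Pik3ap1 at -0.31 and Grb2 at -0.28, the exchange factor Vav1 at -0.30 and Bcl10, which links the receptor to NF-kappaB, at -0.25 were also called. So were the inhibitory receptors Cd5 at -0.51 and Siglecg at -0.67, of which Cd5 is also a T cell marker, and the transcription factor gene Nfatc1 at -0.28, the highest adjusted p of these 10 genes being 0.0446. Syk, the kinase that binds the CD79 tails, stood at -0.15 and Plcg2 at -0.09 and Ighm, the heavy chain of the receptor itself, at -0.01, none of them called (adjusted p = 0.41, 0.51 and 0.98); these 3 were named for their place in the pathway after their values were seen.

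With the cluster as a block, 19 of the 33 pathway genes were called lower, with a median of -0.32, beside 1283 of 12426 genes. With the mean of 22 erythroid genes 20 of 33 were, with a median of -0.31, beside 1746 of 12426. Between arthritic and non-arthritic spleens, 25 of the 33 were higher in the arthritic mice, with a median of 0.05, and 1 was called, Ptpn22, a phosphatase that dampens antigen receptor signals (0.44, limma adjusted p = 0.0485). With the cluster as a block Ptpn22 stood at 0.43 (adjusted p = 0.11), and none of the 33 was called, beside 0 of all 27022 probe sets. Of the 33 genes, 30 had a positive median r with the 9 members, from -0.30 for Stim1 to 0.76 for Prkcb, the protein kinase C beta that acts below BTK, beside a median of 0.07 over all other genes.

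Markers of other cells moved with Slc4a1 as well. Of 16 tested B cell markers other than the members, which share Cr2 and Ighm with the pathway list, 16 had a negative slope and 5 were called lower, with a median of -0.33. These were Cd55 at -0.61, Cxcr5 at -0.52, Ms4a1 at -0.48, Vpreb3 at -0.46 and H2-Ob at -0.46. Of 12 T cell markers, which share Cd5 with the pathway list, 9 were negative and 4 were called, with a median of -0.34. All 22 other erythroid markers were called higher, as were 7 of 9 granulocyte and monocyte markers and 4 of 4 megakaryocyte and platelet markers, and none of the 7 plasma cell and 8 red pulp macrophage markers was called in this fit. Of all 12426 genes, 985 were called lower and 1465 higher in it. With the cluster as a block, 14 of 16 B cell and 9 of 12 T cell markers were called lower, as was the plasma cell marker Irf4 (-0.47), and the macrophage markers Cd5l (1.31) and Adgre1 (0.38) were called higher. That fit called 1283 of 12426 genes lower and 1528 higher. On the mean of 22 erythroid genes, 5 of 8 macrophage markers were called higher, beside 1621 of 12426 genes. The mean of the B cell markers and the mean of the 22 erythroid genes followed each other with r = -0.83, and with -0.89, -0.86 and -0.89 within clusters A, B and C. The B cell mean, as the mean of log2 values centred per gene, ran from -0.45 to 0.51 in the arthritic and from -0.33 to 0.22 in the non-arthritic mice, and the erythroid mean from -1.41 to 0.56 and from -0.50 to 0.56. The part of T cells, macrophages, granulocytes and megakaryocytes in the slopes of the 9 genes was not tested, and the B cell mean was entered as a covariate.

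With that covariate, the median slope of the 9 genes on Slc4a1 was 0.04 in place of -0.30. Fcrl1 was still called lower at -0.47 (limma adjusted p = 0.0163), beside 12.3% of all probe sets, and Btk was called higher at 0.46 (adjusted p = 0.00184), beside 9.75%. The other 7 genes were not called, and of these Cd79a, Cd22, Blk, Cd72 and Blnk had a positive slope.

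Of all other genes tested, the one with the highest mean r to the 9 members over the 36 spleens was Chkb, a choline kinase, at 0.74. It was followed by Sash3 at 0.71, an adaptor of lymphocytes, Snn at 0.71, Dennd3 at 0.71, 4930523C07Rik at 0.70, Septin6 at 0.70, Dennd1c at 0.69, Aff3 at 0.69, Cd37, a tetraspanin of B cells, at 0.69, and Rab7 at 0.69. For 7 of these 10 genes the lowest r was the one with Btk, and for Dennd1c, Aff3 and Cd37 it was the one with Fcrl1. At the other end stood Syce2 at -0.71, Rfc4 at -0.70, Pola1 at -0.69, Dtl at -0.69 and Aurka at -0.68. Rfc4 and Pola1 belong to the DNA replication machinery and Aurka is a mitotic kinase, and the lowest r of each of these 5 genes was with Bank1.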

How the data were processed

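Spleen RNA, extracted with Trizol and biotin-labelled per the labels' protocols, was read on 36 arrays. The authors deposited linear intensity values from MAS5, per the submitters' processing notes; its version is not given in the sources used. They were analysed as log2(intensity + 16) without further normalization, so a log2 difference understates the change of dim probe sets. The 64 control probe sets and those with a mean under the 40th percentile (6.49) were left out, leaving 27022. Probe sets were named from the platform annotation: 34945 name 1 gene, 932 several and 9160 none. Groups and slopes were fitted with limma 3.58.1 (R 4.3.3, two-sided, with a trended variance prior, Benjamini-Hochberg over all probe sets, threshold 0.05), correlations tested with 100000 permutations (scipy 1.17.1) and adjusted over 111798 relations, in place of the 36 pairs first planned.

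Arrays were clustered on the hybridisation controls, centred within each array (Ward, 3 clusters). The 9 genes, the lists and the naming rule were chosen with earlier results of these data known. The rule names, from the pathway list, up to 10 called genes by smallest p, and the 10 most and 5 least like genes by mean r. Because the labels do not say how the mice were sampled, p-values measure the spread between these 36 samples. Other settings were scaling, filter, pseudocount (1, 64), blocks, covariates and each array left out; 3 were added after seeing the data (the other Slc4a1 probe set, and 2 fits that join the cluster with another term).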

Additional observations from a re-analysis of the deposited data

How the results depend on the processing

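The count of probe sets called between the groups, 13 in the fit reported, was 0 without the filter, 1 after quantile normalization, 0 without the trend in the variance prior, 0 with the cluster of arrays as a block, 0 with Slc4a1 as a covariate, 179 with the B cell mean as a covariate, 7 with both the cluster and the B cell mean, and 236 without the 3 arrays with pancreas transcripts; leaving out 1 array at a time gave 0 to 389. For the slope on Slc4a1 the count was 4378, and 6912 with the cluster and the mean of 22 erythroid genes, with 3266 to 5002 when 1 array was left out. With the replicate number as a replicate block, the counts were 369 and 671 of 27022 and 27019, the second Cd22 probe set and Fcrl1 were called between the groups, and no representative probe set was called for its slope. The labels do not say whether arrays with the same number belong together. Over the 18 same-numbered pairs, r of the deviations from the group means ran from -0.23 to 0.47 and was above 0.1 in 11. Of the arthritic arrays, 2 followed the non-arthritic array of their own number best. No cause of these changes was tested.

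Signs turned for small values. The group difference became 0.066 for Btk and 0.059 for Cd72 with the cluster as a block, and 0.054 for Btk and -0.035 for Bank1 with the cluster and the B cell mean. It became -0.025 for Blk, -0.0076 for Blnk and -0.057 for Bank1 with Slc4a1 as a covariate, and -0.020 for Bank1 with the B cell mean. Differences of medians, used with the Wilcoxon test, were -0.040 for Blk, -0.079 for the second Fcrl1 probe set, 0.066 for Cd72 and -0.028 for Bank1. The slope on Slc4a1 became 0.13 for Cd79a, 0.089 for Cd22, 0.14 for Blk, 0.0092 for Cd72 and 0.040 for Blnk with the B cell mean. For Btk it was -0.0034 after quantile normalization, -0.077 on the mean of 22 erythroid genes and -0.045 with the cluster added, and for the second Fcrl1 probe set it was 0.085 on the other probe set of Slc4a1. The difference of slopes turned under quantile normalization to 0.29 for Cd79b, 0.064 for Cd79a and 0.094 for Cd22. With the cluster as a block it was 0.067 for Cd79b, 0.14 for Cd79a, 0.11 for Cd22, 0.010 for the second Fcrl1 probe set and 0.012 for Bank1. With the replicate block it was 0.42 for Cd79b, 0.37 for Cd79a, 0.32 for Cd22 and 0.15 for Bank1, and without the pancreas arrays 0.067 for Cd22. As the mean of all probe sets of a gene, r was -0.096 for Cd22 with Btk and 0.11 for Btk with Fcrl1; the latter was 0.49 with the cluster and 0.11 with Slc4a1 and group taken out. With 1 array left out, the group difference of Bank1 ran from -0.018 to 0.033, and the difference of slopes from -0.090 to 0.24 for Blk, -0.11 to 0.063 for Cd22, -0.055 to 0.22 for Cd72, -0.16 to 0.035 for Cd79a and -0.13 to 0.046 for Cd79b.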
